A study of Mus musculus with 5 samples.

Results

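The genes described here are the extracellular and membrane parts of the Wnt pathway, measured in epithelial tumour cells of the mouse prostate. They are 19 Wnt ligands, 10 Frizzled receptors, 2 Lrp co-receptors, 3 R-spondins and 4 secreted Frizzled-related proteins. Members were all probe sets of the array whose only gene symbol in the platform annotation is one of these 38 genes, which gave 75 of 45037 probe sets. Each of the 38 genes had at least 1 such probe set, and no probe set listed a member together with another gene.

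Each array held tumour cells of 1 C57BL/6 mouse, taken from a dissociated prostate tumour on ice with EpCAM beads, which bind an epithelial surface protein. Deletion in both genotypes is driven by Probasin, whose promoter is active in the prostate epithelium, so other cells of the gland keep the floxed genes. In the 3 nDKO mice the alleles removed include those of Smad4, through which TGF-beta signals reach the nucleus. The 2 nTKO mice carry the same deletions and lack Pygo2 in addition, a chromatin reader that works with beta-catenin in the Wnt pathway. Ages were 15.86, 10.71 and 10.71 weeks for nDKO 1, 2 and 3 and 31.43 and 16 weeks for nTKO 1 and 2, so age and genotype are partly confounded.

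Wnt proteins are lipid-modified ligands that leave the cell with the carrier Wls and bind a Frizzled receptor. Together with Lrp5 or Lrp6 the receptor stops the destruction of beta-catenin, which then enters the nucleus. With other co-receptors, Frizzled proteins act on cell polarity and movement instead. R-spondins raise the number of receptors at the surface, and secreted Frizzled-related proteins bind Wnts outside the cell. In the prostate the pathway is known for its part in gland budding and in tumours that resist androgen deprivation. The comparison asks how transcripts of this first layer of the pathway differ when Pygo2, one of its nuclear partners, is deleted.

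The arrays had median log2 signals of 4.94 to 4.98. Pygo2, the gene that separates the genotypes, was at 8.65, 8.62 and 8.72 in the nDKO mice and at 7.30 and 6.35 in the nTKO mice, so the groups did not overlap (limma adjusted p = 0.799). Its 1 probe set has no known position relative to the deleted part. The brightest Smad4 probe set was at 9.63, 9.88 and 9.88 in the nDKO mice and 9.76 and 10.37 in nTKO. It kept a signal in both genotypes, and whether it reads the deleted part is not known here. All 8 epithelial and luminal markers were above the dim reference explained below, with list medians of 12.49 to 12.78. Fibroblast and endothelial lists had medians of 4.19 to 4.36 and 3.20 to 3.45, although the fibroblast marker Dcn reached 9.52. Macrophage and neutrophil lists, with medians of 7.70 to 8.99 and 6.30 to 7.80, lay above the dim reference on every array. The nDKO 1 and nTKO 1 arrays stand apart through squamous genes, as given with Wnt5a. They also stand apart in other lists: the seminal vesicle list had a median of 8.28 in nDKO 1 against 10.42 to 13.29 on the other arrays, and the log2 of the summed neutrophil signal was 13.91 in nTKO 1 against 9.52 to 11.43. The part of either list in the values of receptors lowest in nDKO 1 or highest in nTKO 1 was not tested. In such bulk samples, fewer cells of a type and less RNA per cell cannot be told apart.

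Signal levels divided the family by role. No detection calls were used, so the 95th percentile of the mean signals of 44 olfactory receptor probe sets, 4.79, served as a dim reference for genes with little or no transcript. Of the 75 member probe sets, 41 had a mean above it, against 52.6% of all probe sets. They came from 25 of the 38 genes. All 10 Frizzled genes, both Lrp genes and all 4 secreted Frizzled-related genes had at least 1 probe set above the reference. Of the 19 ligands, 9 had one, namely Wnt3a, Wnt4, Wnt5a, Wnt5b, Wnt6, Wnt7a, Wnt7b, Wnt9a and Wnt10a. None of the 5 R-spondin probe sets had one, with means of at most 4.66. The other ligands, Wnt1, Wnt2, Wnt2b, Wnt3, Wnt8a, Wnt8b, Wnt9b, Wnt10b, Wnt11 and Wnt16, had probe sets with means between 2.57 and 4.43. A gene with more probe sets has more chances of 1 above the reference. By probe sets, 19 of 26 for the Frizzled genes and 12 of 32 for the ligands were above it. A dim probe set may fail to respond to its transcript, and brightness depends on the probes, so these levels do not rank genes by amount.

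**Figure D1:**
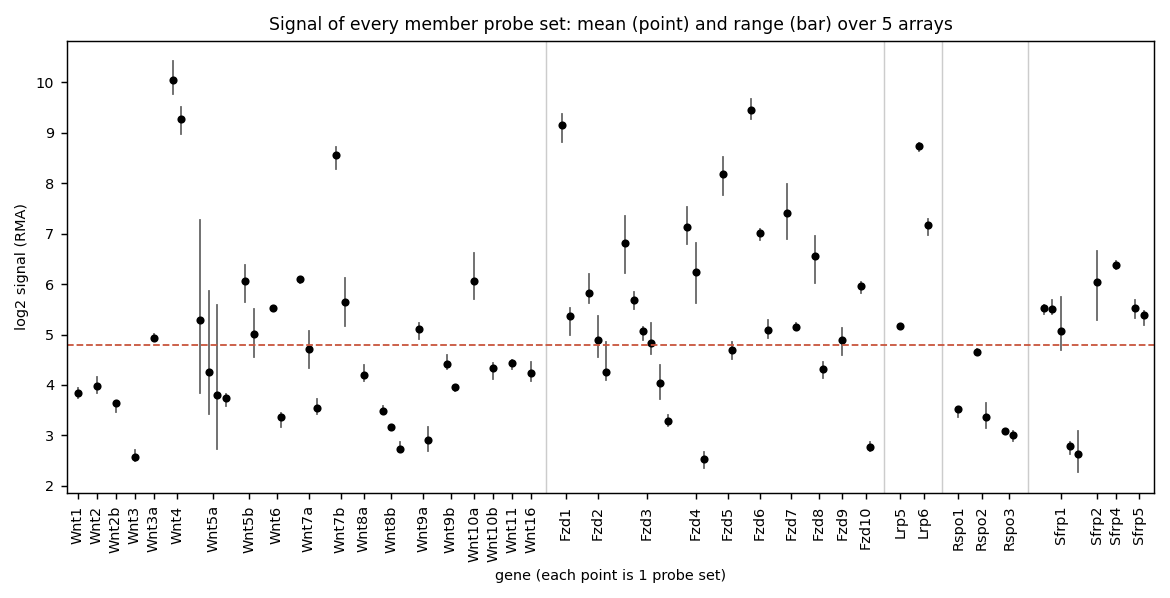
Mean log2 signal (points) and range over the 5 arrays (bars) of every member probe set, by gene and role, with the dim reference of 4.79 as a dashed line. The brightest probe sets of Wnt4, Wnt7b, Fzd1, Fzd5, Fzd6 and Lrp6 lie far above the line. All R-spondin probe sets lie below it, and the longest bars belong to Wnt5a.

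No member passed the test between the genotypes. With limma over all 45037 probe sets, 0 of the 75 member probe sets had an adjusted p under 0.05, as did 0 of all probe sets (0% called), and the smallest adjusted p among members was 0.799. An unadjusted p under 0.05 was found for 6 member probe sets (8%), against 3.8% of all probe sets. Of these, 2 were higher in nTKO (background 2.17%) and 4 lower (background 1.63%). That split was 3 higher and 5 lower after quantile normalization and 5 and 5 after median centring. It turned with single nTKO mice, at 0 higher and 8 lower without nTKO 1 (9.38% of all probe sets) and 7 higher and 1 lower without nTKO 2 (17.6% of all probe sets). The groups did not overlap for 15 member probe sets (20%), against 12.2% of all probe sets, 9 higher (background 7.02%) and 6 lower (background 5.17%). The median difference was 0.017 for the members and 0.017 for all probe sets. These shares describe the list and carry no test. An exact permutation test of 3 against 2 arrays has 10 splits and cannot go below 0.1. P-values measure the spread between these 5 mice, with 1 array each.

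By role, ligands and receptors differed in their counts of signs. Among ligand probe sets above the dim reference, 10 were lower and 2 higher in nTKO cells, with a median difference of -0.28. Among Frizzled probe sets above it, 12 were higher and 7 lower, with a median of 0.13. Over all 32 ligand probe sets, dim ones included, 18 were lower and 13 higher, with a median of -0.032, and over all 26 Frizzled probe sets 15 were higher and 11 lower, with a median of 0.095. For the probe sets above the reference, the same counts were obtained after quantile normalization, and median centring left 10 ligand probe sets lower and 1 higher. Over all probe sets 25215 were higher and 18842 lower, and over those above the reference 12595 were higher and 10811 lower. The counts by role were not repeated with mice left out. Several probe sets read the same gene, so these counts are not independent, and the difference between the roles was not tested.

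**Figure D2:**
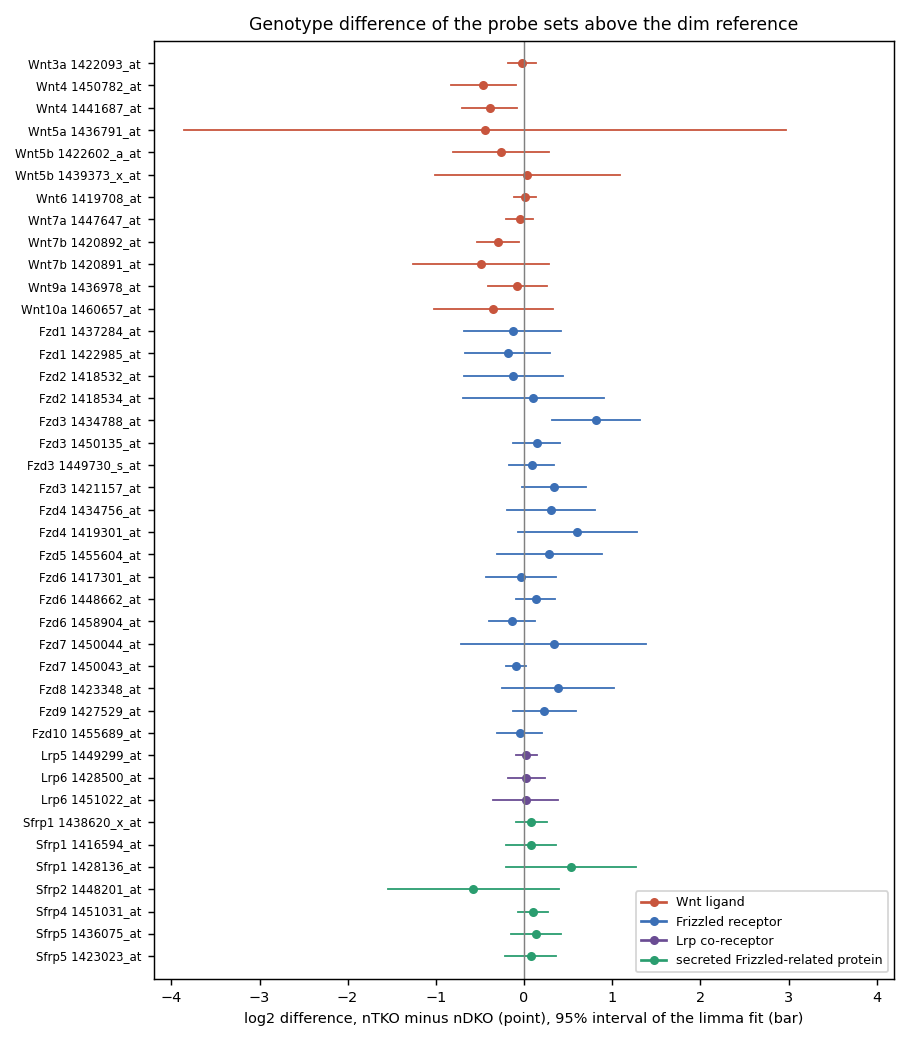
Log2 difference of nTKO minus nDKO (points) with the 95% interval of the limma fit (bars) for the 41 member probe sets above the dim reference, coloured by role. Both Wnt4 probe sets and 1 of Wnt7b lie wholly below 0 and 1 of Fzd3 wholly above it before any adjustment for multiple tests, and the widest interval is that of Wnt5a.

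Wnt4, a ligand known from kidney tubule and reproductive tract development, had lower signals in each nTKO mouse than in any nDKO mouse by both of its probe sets. The brighter one (1450782_at) measured 10.02, 10.42 and 10.26 in the nDKO mice and 9.77 and 9.77 in the nTKO mice. The nTKO values were the same to 2 decimals, and nDKO 1 was the nearest to them. The group means were 10.23 (SD 0.20, n = 3) and 9.77 (SD 0, n = 2), a log2 difference of -0.46 (SE 0.14, 95% interval -0.83 to -0.093), which is 72.5% of the nDKO signal (unadjusted p = 0.0252 and adjusted p = 0.799 in the limma fit). The second probe set (1441687_at) measured 9.25, 9.51 and 9.52 in the nDKO mice and 8.98 and 9.09 in nTKO. Its difference was -0.39 (SE 0.11, limma adjusted p = 0.799), with the same nDKO mouse nearest to the nTKO mice. Between the age-matched mice, nTKO 2 at 16 weeks and nDKO 1 at 15.86, the differences were -0.25 and -0.16. This pair, used again below, is matched in age but not in squamous markers. Their list medians were 10.36 in nDKO 1 and 5.47 in nTKO 2, and the part of this in any difference of the pair was not tested. A fit that includes age (log2 weeks) gave -0.31 and -0.20.

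No promoter sequence was available here for Wnt7b, Fzd3 or Fzd8, so the choice was among the remaining members. The promoter of Wnt4 is shown because this ligand was lower by both of its probe sets. That of Fzd4 is shown because this receptor was on the other side in 2 of its 3 probe sets. Both are the 250 bases before the gene's start in RefSeq (GRCm38.p6), at chr4:137277385-137277634 on the plus strand for Wnt4 and chr7:89404116-89404365 on the plus strand for Fzd4. Capitals mark the GC box GGGCGG on either strand, where neighbouring matches can overlap.
Wnt4: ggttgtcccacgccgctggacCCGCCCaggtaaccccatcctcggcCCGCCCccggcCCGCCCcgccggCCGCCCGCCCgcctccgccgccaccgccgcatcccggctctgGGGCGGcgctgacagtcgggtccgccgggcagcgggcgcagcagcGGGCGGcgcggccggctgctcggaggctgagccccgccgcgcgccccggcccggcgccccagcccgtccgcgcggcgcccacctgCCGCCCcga
Fzd4: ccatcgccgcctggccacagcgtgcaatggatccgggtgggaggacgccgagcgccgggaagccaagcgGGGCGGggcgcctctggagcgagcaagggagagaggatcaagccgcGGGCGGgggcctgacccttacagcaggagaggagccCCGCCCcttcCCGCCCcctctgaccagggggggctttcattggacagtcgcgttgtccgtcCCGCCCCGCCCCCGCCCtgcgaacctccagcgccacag
The Wnt4 window held 8 matches to the GC box and the Fzd4 window 7, with G and C making up 85.2% and 72.8% of the bases. A GC box was found in 32.7% of all 32851 promoter windows of this length and in 19 of 27 windows of member genes (24 of the 38 genes matched). The core CTTTGA of TCF/LEF sites, the factors through which beta-catenin acts, was found on either strand in neither window, in 3 of the 27 member windows and in 13.8% of all windows. The AP-1 site TGANTCA was in 1 of the 27 windows and in 6.75% of all. A match is a description of the sequence, and the arrays did not measure binding.

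Wnt7b, an epithelial ligand known from lung development, was the other ligand whose groups did not overlap above the dim reference. Its brighter probe set (1420892_at) measured 8.61, 8.72 and 8.69 in the nDKO mice and 8.28 and 8.48 in nTKO. The nDKO mice lay within 0.11 of each other, and the difference was -0.29 (SE 0.087, 95% interval -0.53 to -0.056), with an unadjusted p of 0.0262 and a limma adjusted p of 0.799. The dimmer probe set (1420891_at) measured 5.37, 6.12 and 6.02 in the nDKO mice and 5.17 and 5.53 in nTKO. Here nDKO 1 fell between the nTKO mice, so the groups overlapped, with a difference of -0.49 (SE 0.28, limma adjusted p = 0.799). The fit that includes age gave -0.12 and 0.074, and the age-matched mice -0.13 and 0.16. The brighter probe set gave -0.19 without nTKO 1, and the dimmer one -0.31.

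Of the 8 markers of basal epithelium, 0 passed the limma test, and for 1 of them, Krt15, the nTKO mice were both below the nDKO mice. Groups did not overlap for 12.2% of all probe sets. Krt5, Krt14 and Trp63 were highest in nDKO 1 and nTKO 1, with Krt5 at 13.10 and 12.35 against 10.52 to 10.87 on the other arrays. Itgb4, Itga6, Dst and Col17a1 were also highest in nDKO 1 but lowest in nTKO 1, with Col17a1 at 8.91 and 6.24 on these arrays. The medians of the basal list were 10.26, 9.76 and 9.62 in the nDKO mice and 9.54 and 9.35 in nTKO, and 7 of its 8 genes had lower nTKO means. The log2 of the summed basal signal overlapped between the groups (14.10 to 15.04 in nDKO, 13.57 and 14.38 in nTKO), and each of the 8 markers was above the dim reference. Its part in the differences of Wnt4 and Wnt7b was not tested.

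Wnt5a, a ligand best known for signalling outside the beta-catenin route, varied widely between mice of each genotype. Its brightest probe set (1436791_at) measured 7.27, 4.34 and 4.81 in the nDKO mice and 6.23 and 3.83 in nTKO. It was highest in nDKO 1 and nTKO 1, and its range of 3.44 was at the 99.8th percentile of all probe sets. The probe set 1448818_at was highest on the same arrays, at 5.87 and 4.40 against 3.42 to 3.80 on the others. So was 1437673_at, at 5.58 and 4.38 against 2.72 to 3.31. The means of 1448818_at and 1437673_at, 4.25 and 3.81, are below the dim reference, and only their nDKO 1 values lie above it. The remaining probe set, 1456976_at, was also dim and stayed between 3.59 and 3.81. The genotype difference of the brightest probe set was -0.44 (SE 1.25, 95% interval -3.85 to 2.97, limma adjusted p = 0.942), far within the spread of the mice. It was 0.46 without nDKO 1, 0.76 without nTKO 2, -1.64 without nTKO 1, -1.01 without nDKO 2, -0.78 without nDKO 3 and -3.44 between the age-matched mice.

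Squamous markers, 12 genes of squamous epithelium, were high by their list median on the same arrays as Wnt5a. Their list medians were 10.36 in nDKO 1 and 9.92 in nTKO 1 against 6.09, 6.01 and 5.47 on nDKO 2, nDKO 3 and nTKO 2. Not every gene of the list followed its median. In nTKO 1, Lor at 5.06 and Sprr3 at 4.98 were near their values on nDKO 2, nDKO 3 and nTKO 2. Dsg1a was at 3.47 in nDKO 1 against 3.81 in nDKO 2. The nTKO 1 and nDKO 1 mice are also the oldest nTKO mouse and the oldest nDKO mouse. Age and other differences between the mice therefore cannot be told apart. Over all 10 pairs of arrays, nDKO 1 and nTKO 1 held the highest values for 11 of the 75 member probe sets (14.7%) and 11% of all probe sets. Above the dim reference the shares were 7 of 41 (17.1%) and 17.2%, so the members as a list did not stand apart from the table in this. Besides Wnt5a, these 7 were both probe sets of Fzd1 and 1 each of Fzd6, Fzd7, Fzd10 and Sfrp1.

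**Figure D3:**
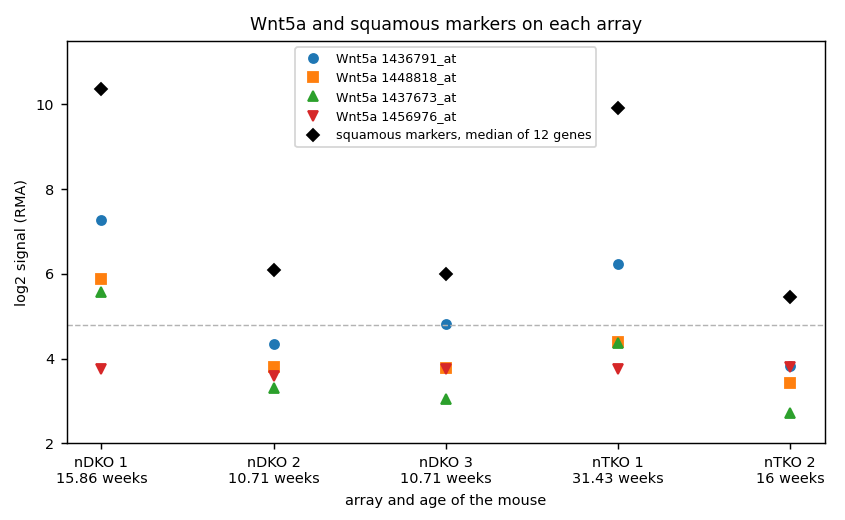
Log2 signal of the 4 Wnt5a probe sets and the median of 12 squamous markers (diamonds) on each array, with the age of each mouse and the dim reference of 4.79 as a dashed line. Of the Wnt5a probe sets, 1436791_at, 1448818_at and 1437673_at are highest in nDKO 1 and then nTKO 1, as is the squamous median. The probe set 1456976_at stays between 3.59 and 3.81.

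Of the other ligands above the dim reference, Wnt10a, which acts in skin and tooth development, measured 6.61, 5.99 and 5.99 in the nDKO mice and 5.99 and 5.71 in nTKO. Only nDKO 1 stood above 5.99, and the difference of -0.35 (SE 0.25, limma adjusted p = 0.799) was within the range of the nDKO mice. The probe sets of Wnt5b, a relative of Wnt5a, gave -0.26 and 0.037. Wnt3a, Wnt6, Wnt7a and Wnt9a differed by -0.075 to 0.010 by their brightest probe sets. Among ligand probe sets below the reference, Wnt9a (1425889_at) and Wnt16 did not overlap between the groups, as was so for 12.2% of all probe sets. Their differences were 0.28 and -0.22, with signals of 2.68 to 4.46, below the dim reference.

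Among the receptors, Fzd3 had the largest difference of all members. Fzd3 is known for planar cell polarity and axon guidance. Its brightest probe set (1434788_at) measured 6.22, 6.46 and 6.77 in the nDKO mice and 7.24 and 7.35 in nTKO. Both nTKO mice were above every nDKO mouse, and the nTKO values lay closer together than the nDKO values. The means were 6.48 (SD 0.28, n = 3) and 7.30 (SD 0.078, n = 2), a difference of 0.81 (SE 0.18, 95% interval 0.31 to 1.31), or 176% of the nDKO signal. Its unadjusted p was 0.0103 and its limma adjusted p 0.799. The difference was 0.68 to 0.96 with 1 mouse left out, 1.07 in the fit that includes age and 1.13 between the age-matched mice.

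The other Fzd3 probe sets gave smaller values. The groups did not overlap for 1421157_at, with 4.74, 4.61 and 4.74 in the nDKO mice and 5.23 and 4.85 in nTKO (difference 0.34, SE 0.13, limma adjusted p = 0.799). That difference was 0.15 without nTKO 1, 0.53 without nTKO 2 and 0.076 in the fit that includes age. They did not overlap for 1420087_at either (0.36, SE 0.14), whose mean of 4.04 is below the dim reference. The probe sets 1450135_at, 1449730_s_at and 1438101_at differed by 0.14, 0.085 and -0.0067. Of the 6 probe sets, 5 had a higher nTKO mean, and which part of the transcript each one reads is not known here.

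Fzd4, also the receptor of the retinal ligand Norrin, was higher in nTKO cells by its second probe set (1419301_at), which measured 5.63, 6.13 and 6.21 in the nDKO mice and 6.37 and 6.82 in nTKO. The nTKO mice were both above the nDKO mice, though nTKO 1 exceeded nDKO 3 by little, and the difference was 0.61 (SE 0.25, 95% interval -0.071 to 1.28, limma adjusted p = 0.799). It was 0.38 without nTKO 2 and 1.19 between the age-matched mice. The brightest Fzd4 probe set (1434756_at) overlapped, with 6.79, 7.09 and 7.15 against 7.11 and 7.52 (0.31, SE 0.18). Both probe sets were lowest in nDKO 1, the array with the highest squamous median and the lowest seminal vesicle median. They were not low in nTKO 1, which had the next highest squamous median, at 7.11 for 1434756_at and 6.37 for 1419301_at. The part of either list in these values was not tested. The third (1449416_at) was dim, with a mean of 2.54 and a difference of -0.14.

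Fzd8 and Fzd9 showed non-overlapping groups with narrow margins. Fzd8 (1423348_at) measured 6.03, 6.59 and 6.61 in the nDKO mice and 6.95 and 6.64 in nTKO. Here nTKO 2 exceeded nDKO 3 by 0.03, and the difference of 0.39 (SE 0.23, limma adjusted p = 0.799) was 0.20 without nDKO 1, 0.23 without nTKO 1 and 0.04 without both. Fzd9 (1427529_at) measured 4.59, 4.89 and 4.89 in the nDKO mice and 5.12 and 4.92 in nTKO, close to the dim reference, and its difference of 0.23 was 0.13 without either of these mice and 0.03 without both. Both receptors were lowest in nDKO 1 and highest in nTKO 1.

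Fzd7, known as a receptor of epithelial stem cells, varied between mice. Its brighter probe set (1450044_at) measured 7.80, 7.11 and 6.90 in the nDKO mice and 7.98 and 7.23 in nTKO. The highest values were on nDKO 1 and nTKO 1, the groups overlapped, and the difference of 0.34 (SE 0.38, limma adjusted p = 0.842) was -0.04 without nTKO 1, 0.71 without nTKO 2, 0.60 without nDKO 1, 0.15 without nDKO 3 and -0.57 between the age-matched mice. The dimmer one (1450043_at) was at 5.18, 5.22 and 5.16 against 5.10 and 5.10, a difference of -0.087 with groups that did not overlap. The 2 probe sets therefore had opposite signs.

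For the remaining receptors the groups overlapped. Fzd5, a receptor of the intestinal epithelium, measured 7.76, 8.10 and 8.33 in the nDKO mice and 8.17 and 8.53 in nTKO by its brighter probe set. Its groups overlapped, with a difference of 0.29 (SE 0.22, limma adjusted p = 0.799). Fzd6, known for hair and tissue polarity, measured 9.68, 9.27 and 9.46 against 9.51 and 9.36, a difference of -0.035 with a 95% interval of -0.43 to 0.36. Fzd1, Fzd2 and Fzd10 differed by -0.19 to 0.11 over their probe sets above the dim reference, and each of those overlapped.

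Lrp5 and Lrp6, the co-receptors of the beta-catenin route, differed little between the genotypes. The brighter Lrp6 probe set (1428500_at) measured 8.64, 8.75 and 8.80 in the nDKO mice and 8.71 and 8.80 in nTKO. The groups overlapped almost wholly, and the difference was 0.025 (SE 0.076) with a 95% interval of -0.18 to 0.23. The other Lrp6 probe set and that of Lrp5 gave 0.017 and 0.027, with intervals of -0.35 to 0.38 and -0.094 to 0.15. Larger differences than these bounds lie outside the intervals of this fit.

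The secreted Frizzled-related proteins, which bind Wnts outside the cell, were split. Sfrp2 measured 5.90, 6.65 and 6.24 in the nDKO mice and 6.10 and 5.28 in nTKO. The low value of nTKO 2 sets most of its difference of -0.57 (SE 0.35, limma adjusted p = 0.799), which was -0.16 without that mouse, -0.98 without nTKO 1 and -0.38 without nDKO 2. Sfrp1 had 1 probe set (1428136_at) at 5.14, 4.70 and 4.74 in the nDKO mice and 5.74 and 5.05 in nTKO. Its groups overlapped, and its difference of 0.54 (SE 0.27, limma adjusted p = 0.799) was 0.19 without nTKO 1, 0.88 without nTKO 2 and -0.09 between the age-matched mice. The Sfrp1 probe set 1438620_x_at had groups that did not overlap, at 5.40, 5.54 and 5.55 against 5.58 and 5.58, a difference of 0.083 that was 0.035 without nDKO 1. Probe sets ending in _x_at can bind transcripts of other genes. Sfrp4 and Sfrp5 differed by 0.073 to 0.14.

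R-spondin probe sets were all below the dim reference. Of the 5, Rspo2 (1455893_at) and Rspo3 (1443187_at) had groups that did not overlap, as had 12.2% of all probe sets. Their differences were 0.23 and -0.13, and the Rspo3 probe set had an unadjusted p of 0.0401 (limma adjusted p = 0.799). The other Rspo3 probe set read 3.09 on all 5 arrays. Of all 75 member probe sets, 22 showed 1 identical value on 3 or more arrays.

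**Figure D4:**
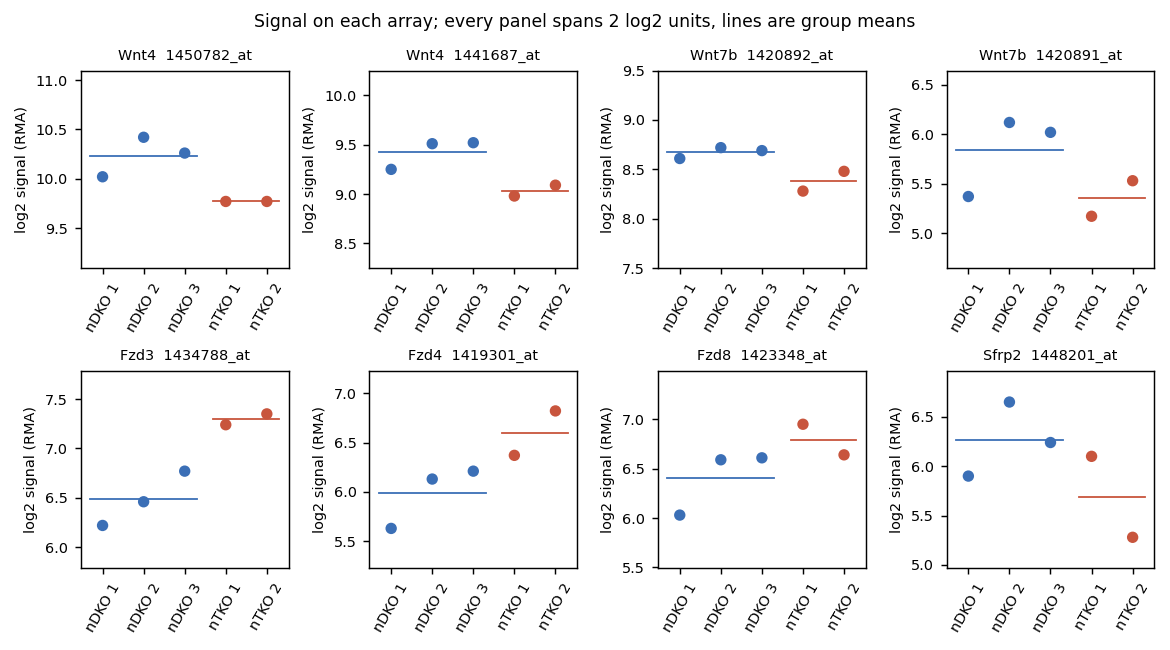
Log2 signal of 8 member probe sets on each array (blue nDKO, red nTKO), with group means as lines and 2 log2 units in every panel. Both Wnt4 probe sets and the first of Wnt7b are lower in both nTKO mice, those of Fzd3, Fzd4 and Fzd8 are higher, and Sfrp2 and the second Wnt7b probe set overlap.

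The rest of the pathway was described from a list of 50 further genes, of which 48 were measured with 102 probe sets. None of these probe sets passed the limma test (0% of all probe sets called). An unadjusted p under 0.05 was found for 7 (6.86%, against 3.8% of all probe sets), 1 higher and 6 lower, including Pygo2 itself. The groups did not overlap for 13 (12.7%), a share near the 12.2% of all probe sets. The carrier Wls, which brings lipid-modified Wnts to the cell surface, was among those lower. Its probe set 1437434_a_at measured 10.18, 10.15 and 9.97 in the nDKO mice and 9.71 and 9.61 in nTKO. Both nTKO mice were below every nDKO mouse, with a difference of -0.44 (SE 0.092, 95% interval -0.69 to -0.19), an unadjusted p of 0.0078 and a limma adjusted p of 0.799. The brightest Wls probe set (1423824_at) gave -0.38 without overlap, and the others -0.28 and, below the dim reference, 0.077. Between the age-matched mice 1437434_a_at gave -0.57. Porcn, the enzyme that adds the lipid to Wnts, differed by -0.042.

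Downstream of the receptors, both probe sets of Dvl1, a scaffold that Frizzled recruits, were lower without overlap. They measured 10.33, 10.32 and 10.27 against 10.14 and 9.96 (difference -0.26, SE 0.077) and 9.24, 9.17 and 9.20 against 8.99 and 8.97 (difference -0.22, SE 0.054), each with a limma adjusted p of 0.799. The first of these was -0.17 without nTKO 2. Tcf7l1, which binds DNA and holds Wnt targets down, measured 7.39, 7.03 and 7.31 in the nDKO mice and 7.77 and 7.59 in nTKO. It was the 1 pathway probe set that was higher with an unadjusted p under 0.05 (0.44, SE 0.14, limma adjusted p = 0.799), and its other probe set gave -0.088. Its difference was 0.20 between the age-matched mice. For the kinase gene Csnk1a1, which marks beta-catenin for destruction, 1 of 5 probe sets (1437923_at) had groups that did not overlap, at 7.76, 7.89 and 8.07 against 6.83 and 7.59. Its difference of -0.70 (SE 0.26, limma adjusted p = 0.799) was -0.32 without nTKO 1, -1.08 without nTKO 2 and -0.12 in the fit that includes age, and the brightest Csnk1a1 probe set gave -0.038. Dim probe sets of Kremen1, a receptor of the inhibitor Dkk1, and Nkd1, an inhibitor of Dvl proteins, gave -0.20 and -0.12, the latter -0.07 without nTKO 2. The brightest probe sets of Kremen1 and Nkd1, both above the dim reference, overlapped between the groups and gave -0.13 and 0.0033.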

How the data were processed

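RNA of 5 mice was labelled with biotin and measured on Affymetrix mouse expression arrays. The authors deposited log2 signals, 1 per probe set and array. Per the submitters' processing notes they used RMA with Transcriptome Analysis Console; the sources used here give no versions or settings. RMA quantile-normalizes probes, which hides any shift that most genes share, and values were rounded to 2 decimals. No scanner files were used. Separately from this, the number of arrays limits the precision. In the annotation, 34945 of 45037 probe sets had 1 symbol, 932 several and 9160 none. All 75 member probe sets had a gene identifier in RefSeq's GRCm38.p6 gene table, and 0 symbols were updated.

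nTKO was compared with nDKO by limma 3.58.1 in R 4.3.3 (lmFit, eBayes with an intensity trend, 3 residual and 1.18 prior degrees of freedom), two-sided, with Benjamini-Hochberg adjustment over all probe sets and a threshold of 0.05. The 95% intervals come from that fit and are not adjusted. The script was tested on simulated data. Members and lists were chosen with earlier results of these data known. Values on all arrays are given for members above the dim reference whose difference was at least 0.5, whose groups did not overlap or whose range was at least 1; further probe sets of those genes and some others were chosen after their values were seen. Of the other pathway genes, up to 10 with an unadjusted p under 0.05, or with groups that did not overlap and a difference of at least 0.5, are named by smallest p. Alternatives were 1 probe set a gene, filters at the median level of 4.97 and at the dim reference, quantile normalization, median centring, eBayes without trend or robust, array weights, log2 age, the replicate number as a block, a pair of like age and leaving out mice. Tcf7 and Kremen2 were not analysed here. Some further items, including a floxed gene of both genotypes, are not reported.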

Additional observations from a re-analysis of the deposited data

How the results depend on the processing

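Under each setting in which the test was run, 0 of the probe sets tested (45037, or fewer with a filter or 1 probe set a gene), 0 members and 0 of the other pathway genes had a limma adjusted p under 0.05; the smallest was 0.0615 for any probe set and 0.134 for a member. The count of members at an unadjusted p under 0.05 was 6, and 3 with 1 probe set a gene (where 38 remain; 3.79% of all), 10 after median centring (3.61% of all), 12 with log2 age as a covariate (9.08% of all probe sets) and 17 without both nDKO 1 and nTKO 1 (16.4% of all), and 3 to 8 with 1 mouse left out, the 3 without nDKO 3 (3.13% of all) and the 8 without nTKO 1 (9.38%) or nTKO 2 (17.6%). The median member difference of 0.017 lay between 0 and 0.057 with 1 mouse left out. It was -0.005 without both nDKO 1 and nTKO 1. All these values lay within the spread between arrays of the median over member probe sets (SD 0.13 within genotypes). The 11 members highest in nDKO 1 and nTKO 1 were 5 with 1 probe set a gene and 7 with either filter, where fewer are counted. Of 24 named probe sets, 19 kept their sign in every setting in which they were tested; filters and 1 probe set a gene leave some out. The others were Wnt5a 1436791_at (0.18 with array weights, -1.64 to 0.76 with 1 mouse left out, being 0.46 without nDKO 1 and 0.76 without nTKO 2), Wnt7b 1420891_at (0.074 with log2 age, 0.16 in the pair of like age), Fzd7 1450044_at (-0.51 with log2 age, -0.04 without nTKO 1 in a range up to 0.71, -0.57 in the pair), Sfrp1 1428136_at (-0.096 with log2 age, -0.09 in the pair) and Smad4 (-0.037 without nTKO 2, up to 0.57 without nTKO 1). The cause of these turns was not tested. Of the 19, all but Sfrp2 had groups that did not overlap. For such probe sets, leaving out mice, array weights, the replicate block and the pair of like age cannot turn the sign. Filters, 1 probe set a gene, and eBayes without trend or robust leave every difference unchanged. Only rescaling and log2 age could have turned them, so the 19 is largely fixed in advance. The labels' replicate numbers link no animals, and with the replicate number as a block 9 members had an unadjusted p under 0.05 (5.09% of all probe sets), 7 higher and 2 lower. Deviations of same-numbered mice correlated at 0.38 and 0.31, but with 2 nTKO mice these mirror each other. With 1 mouse left in a group, limma assumes that it varies like the others. Without detection calls, differences of probe sets below the dim reference cannot be told from background.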
